A study of Mus musculus with 42 samples.

Results

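The 8 genes described here belong to cytosolic nucleic acid sensing and were followed in mouse spleen after injection of CpG DNA: *Rigi*, *Ifih1*, *Dhx58*, *Mavs*, *Cgas*, *Sting1*, *Zbp1* and *Eif2ak2*. They were chosen by name with earlier results of these data known, so counts of called genes among them are descriptions. Each was measured through the array features that carry its symbol alone, averaged where there was more than 1. All 8 had such a feature, 10 features in all, among 15277 genes measured through 23485 features with 1 symbol. *Rigi*, listed on the array as Ddx58, and *Dhx58* had 2 features each, and the other 6 genes had 1. All 10 features gave a value on every array.

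The animals were female BALB/c mice, and whole spleen RNA was measured on 42 arrays in 10 groups. Mice were left untreated (6 arrays), or received by intraperitoneal injection 400 µg of a mixture of the CpG oligodeoxynucleotides (ODN) 1555 and 1466, or of the control ODN 1612 and 1471. Spleens were taken 3 h after control ODN, and 3, 9, 24 and 72 h and 5, 7, 9 and 14 days after CpG ODN, with 4 arrays in each of these groups. The labels name no genetic alteration in any group. Each array paired Cy5-labelled spleen cDNA with Cy3-labelled universal mouse reference cDNA, and a value is the log2 ratio of spleen over reference, with the base and the direction inferred as described under the processing. The series calls the arrays independent biological replicates, and precision rests on 4 to 6 arrays a group. An array lacked 173 to 1740 of the 30601 features, and 0 of the 861 pairs of arrays were identical in every value. In the untreated arrays all 6 B cell, all 7 T cell, all 7 NK cell and all 7 erythroid markers measured were above the reference on every array. So were 7 of 8 neutrophil, 7 of 9 monocyte and macrophage, 6 of 8 plasmacytoid dendritic cell and 4 of 6 pancreas acinar markers. The direction of the ratio was itself inferred from spleen markers, so these counts do not test it. Whole spleen holds many cell types, and in such bulk RNA fewer cells of a type and less RNA per cell cannot be told apart.

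CpG ODN are taken up into endosomes and bind the Toll-like receptor TLR9, whereas the genes described here act in the cytosol. RIG-I (*Rigi*) and MDA5 (*Ifih1*) are helicases that bind viral RNA and signal through the mitochondrial adaptor MAVS, with LGP2 (*Dhx58*) as a related helicase that regulates them. cGAS (*Cgas*) detects DNA and makes a cyclic dinucleotide that activates the adaptor STING (*Sting1*). ZBP1 binds nucleic acids in the Z form and can trigger cell death, and PKR (*Eif2ak2*) is a kinase that binds double-stranded RNA and stops translation by phosphorylating eIF2alpha. Type I interferon, which both the endosomal and the cytosolic pathways can induce, is known to raise several of these genes through the interferon-stimulated response element (ISRE) in their promoters.

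The promoters of *Rigi*, *Ifih1* and *Eif2ak2* are shown because these genes were called higher after CpG ODN and because each held a stretch like the ISRE core. They come from the RefSeq promoter table (build GRCm38.p6). Runs of 5 of the 8 genes were taken from it: *Rigi*, *Ifih1*, *Mavs*, *Cgas* and *Eif2ak2*. Each run has 300 bases, 250 before the annotated start of the gene and 50 after it, written 5′ to 3′ along the gene. *Rigi* lies at chr4:40239776-40240075, *Ifih1* at chr2:62646206-62646505 and *Eif2ak2* at chr17:78882523-78882822, all on the minus strand. Capitals mark matches on either strand to the ISRE core used here, GAAA and GAAA with any 2 letters between them, and to GAAANGAAA, the same with 1 letter less, a form added after the *Rigi* sequence had been seen.
Rigi promoter: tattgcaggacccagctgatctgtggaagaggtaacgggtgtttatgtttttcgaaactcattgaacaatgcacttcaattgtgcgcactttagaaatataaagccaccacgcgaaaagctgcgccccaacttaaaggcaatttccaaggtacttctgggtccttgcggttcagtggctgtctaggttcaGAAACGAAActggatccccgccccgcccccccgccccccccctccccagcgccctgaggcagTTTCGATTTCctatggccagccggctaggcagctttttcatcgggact
Ifih1 promoter: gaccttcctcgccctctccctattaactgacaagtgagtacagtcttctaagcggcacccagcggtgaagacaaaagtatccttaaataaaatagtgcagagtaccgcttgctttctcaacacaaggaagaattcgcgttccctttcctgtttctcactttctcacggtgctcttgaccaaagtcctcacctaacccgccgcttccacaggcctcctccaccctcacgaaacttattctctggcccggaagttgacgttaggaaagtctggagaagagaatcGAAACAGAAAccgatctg
Eif2ak2 promoter: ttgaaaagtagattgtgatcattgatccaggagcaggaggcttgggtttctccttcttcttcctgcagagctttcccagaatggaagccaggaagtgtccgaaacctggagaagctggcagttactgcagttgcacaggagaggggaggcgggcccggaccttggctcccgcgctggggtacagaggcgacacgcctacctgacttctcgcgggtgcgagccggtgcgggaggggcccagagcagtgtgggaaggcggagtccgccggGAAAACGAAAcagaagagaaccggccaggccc

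*Ifih1* held GAAACAGAAA from position 283 of the run and *Eif2ak2* held GAAAACGAAA from position 269, both on the strand shown and both past the annotated start. *Rigi* held GAAACGAAA from position 191 on the strand shown and TTTCGATTTC, a match to the ISRE core on the other strand, from position 253. The ISRE core occurred in 3.44% of the 32851 promoters of this length in the table, and GAAANGAAA in 3.17%. Neither pattern was found in the runs of *Mavs* (chr2:131233813-131234112, plus strand) or *Cgas* (chr9:78443188-78443487, minus strand). The interferon-gamma-activated site TTCNNNGAA, whose letters read the same on both strands, matched only in *Eif2ak2* among the 5, as TTCCCAGAA from position 73, and occurred in 8.30% of promoters. A match of letters is a description of these windows and no evidence of binding. The promoters of *Dhx58*, *Zbp1* and *Sting1* were not analysed here, so whether matches go with a rise cannot be judged over all 8 genes.

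The first comparison asked which of the 8 genes differed from untreated spleen 3 h after CpG ODN. *Ifih1*, *Eif2ak2*, *Dhx58*, *Zbp1* and *Rigi* rose between 3.07-fold and 10.7-fold, *Mavs* fell, and *Cgas* and *Sting1* did not pass the test. A gene was called where the adjusted p of limma's moderated test was below 0.05, with Benjamini-Hochberg adjustment over all genes tested. By this rule 6 of the 8 genes were called, 5 higher and 1 lower, where 11.6% of all genes tested were called, 7.7% higher and 3.93% lower. In 5 of the 8 the arrays of the groups did not overlap, which held for 13.6% of all genes. The median log2 difference was 1.70 over the 8 genes and -0.02 over all genes. The plot of values by array shows the 5 genes standing apart from their untreated arrays at 3 h.

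**Figure D1:**
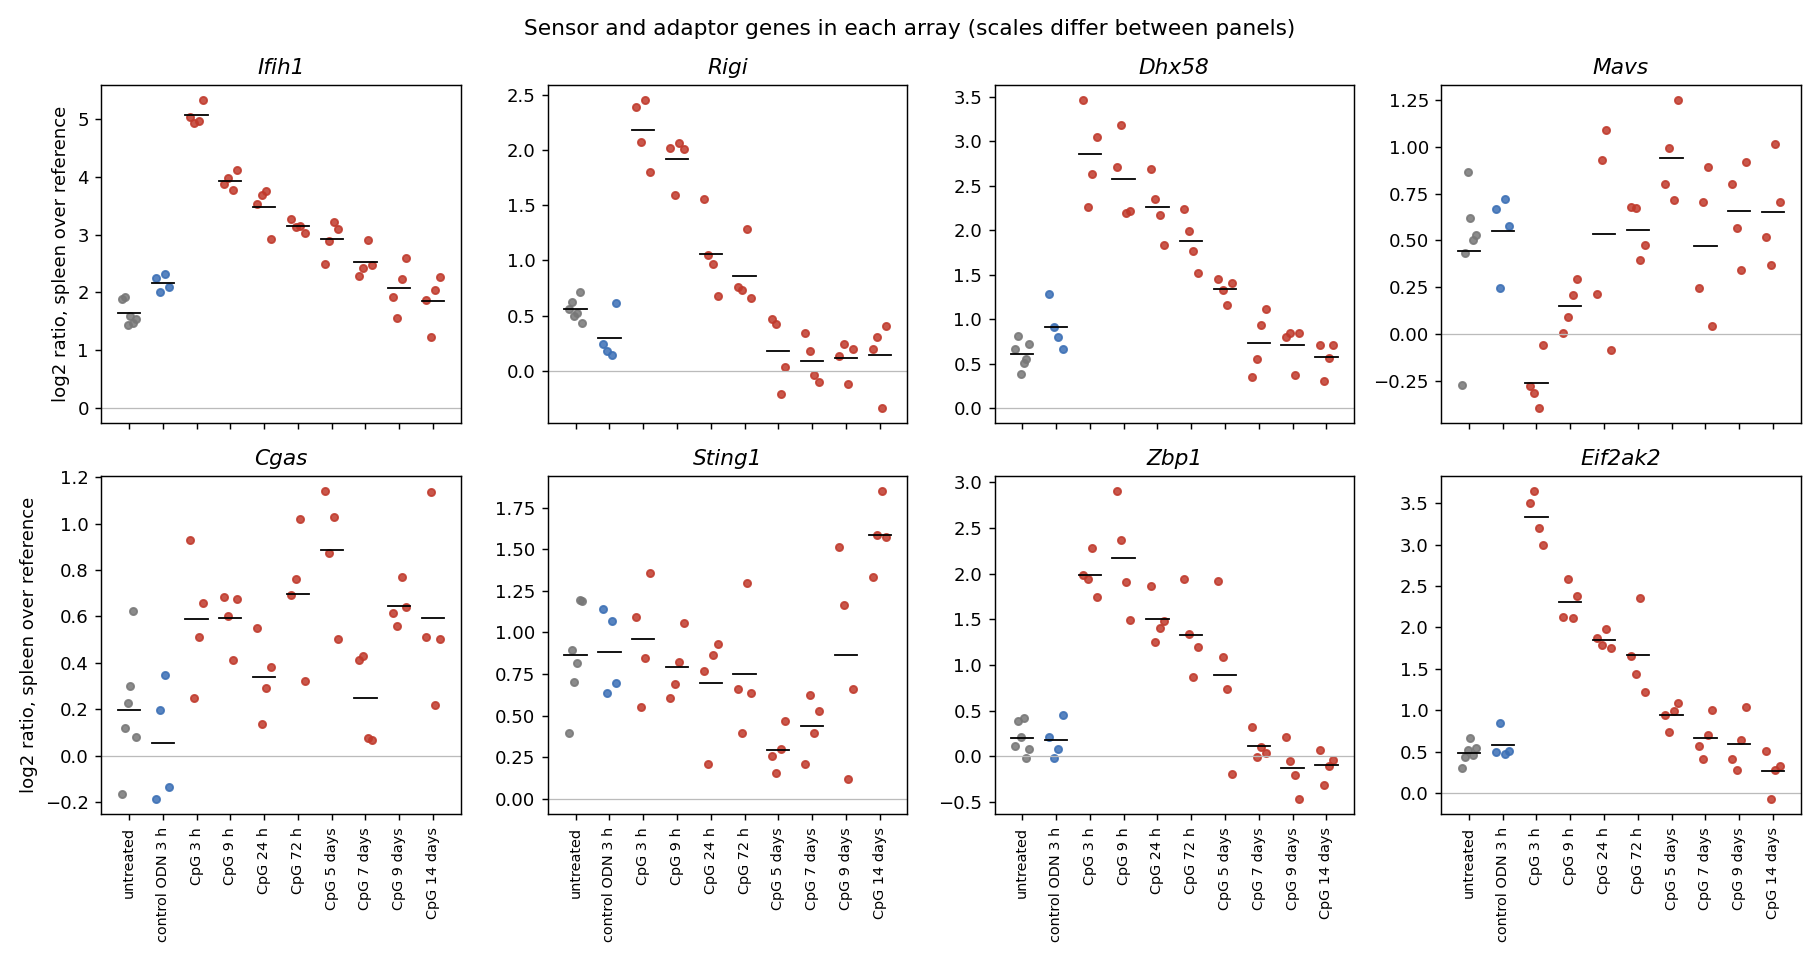
Log2 ratio of spleen over reference for the 8 genes on each of the 42 arrays, by group, with points for arrays (grey untreated, blue control ODN, red CpG ODN) and a black line for the group mean; the vertical scale differs between panels. The *Ifih1* arrays at CpG 3 h sit between 4.93 and 5.32, all above the untreated range of 1.43 to 1.93, while the *Sting1* arrays at CpG 3 h lie within or beside the untreated range.

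Among the helicases, *Ifih1* moved most. Its log2 ratio in untreated spleen had a lowest value of 1.43, a median of 1.56 and a highest of 1.93 over 6 arrays, and at CpG 3 h the 4 arrays read 5.04, 4.93, 4.97 and 5.32. The groups lay far apart, and the arrays at 3 h differed little among themselves. The log2 difference was 3.42 ± 0.18 (SE of the fit), a 10.7-fold rise with an adjusted p of 1.12e-17 in limma, and ranked 25 from the top among 15253 genes tested. A run here is a set of arrays with close database numbers, and the labels do not say what these numbers stand for. In the 1 run that held both groups, the untreated array read 1.93 and the CpG arrays 4.97 and 5.32.

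*Rigi* rose less. Untreated arrays ran from 0.43 through a median of 0.55 to 0.71, and the CpG 3 h arrays read 2.39, 2.07, 2.45 and 1.80. All 4 CpG arrays were above all 6 untreated arrays. The log2 difference of the mean of both features was 1.62 ± 0.16, 3.07-fold, with an adjusted p of 7.53e-10 in limma. Its 2 features differed in size: feature 1 rose by 0.95 ± 0.23 and feature 2 by 2.28 ± 0.19 on the log2 scale, each called when features were tested alone (adjusted p 0.00398 and 2e-12 in limma).

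*Dhx58*, the regulator of the other 2 helicases, ran from 0.38 through a median of 0.61 to 0.82 in untreated spleen and read 3.46, 2.26, 2.64 and 3.05 at CpG 3 h. The CpG arrays were spread over more than 1 log2 unit but did not overlap with untreated arrays. This was a log2 difference of 2.25 ± 0.20, 4.75-fold, with an adjusted p of 1.36e-11 in limma. Here feature 1 rose by 3.01 ± 0.22 and feature 2 by 1.48 ± 0.31 on the log2 scale. Both features were called alone, with adjusted p of 2.98e-14 and 0.000684 in limma.

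The kinase gene *Eif2ak2* ran from 0.30 through a median of 0.49 to 0.66 in untreated spleen and read 3.50, 3.65, 3.20 and 3.00 at CpG 3 h. No array of the one group came near the other. The rise was 2.85 ± 0.17 on the log2 scale, 7.21-fold, with an adjusted p of 1.34e-16 in limma and rank 53 among the genes tested. *Zbp1*, the sensor of Z-form nucleic acids, ran from -0.02 through 0.16 to 0.42 untreated and read 1.98, 1.94, 2.28 and 1.74 at CpG 3 h. Its groups did not overlap either. The log2 difference was 1.79 ± 0.24, 3.46-fold, with an adjusted p of 5.03e-07 in limma. These 5 genes were also called with the run as a fixed block, at adjusted p from 1.7e-08 to 0.00579 in limma, and without any single array of either group.

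The adaptors did not rise with the helicases. *Mavs*, the mitochondrial adaptor of RIG-I and MDA5, ran from -0.28 through a median of 0.51 to 0.87 in untreated spleen and read -0.28, -0.32, -0.40 and -0.06 at CpG 3 h. Untreated replicate 1 was as low as the CpG arrays, so the groups overlapped, while the other 5 untreated arrays were above 0. The log2 difference was -0.71 ± 0.19, 1.63-fold lower, with an adjusted p of 0.0105 in limma. With the run as a fixed block it was -0.66 and not called (adjusted p 0.511); without any single array of either group it stayed called.

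*Sting1*, the adaptor of cGAS, ran from 0.40 through 0.86 to 1.20 in untreated spleen and read 1.09, 0.55, 0.85 and 1.36 at CpG 3 h. The groups overlapped almost fully. The log2 difference was 0.10 ± 0.20, with a 95% interval from -0.31 to 0.50 and an adjusted p of 0.846 in limma, and without CpG 3 h replicate 4 its sign turned (-0.04). *Cgas*, the DNA sensor itself, ran from -0.16 through 0.17 to 0.62 untreated and read 0.93, 0.25, 0.51 and 0.66. Only the highest CpG arrays exceeded the untreated range. Its log2 difference was 0.39 ± 0.16 (interval 0.06 to 0.72, adjusted p 0.126 in limma), which did not pass over all genes, though without the 8 arrays that had over 1000 missing features it was 0.47 and passed (adjusted p 0.0261).

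Among cell type markers at 3 h, where 11.6% of all genes were called, 3 of 8 neutrophil, 1 of 9 monocyte and macrophage and 1 of 7 NK cell markers were called higher, and 1 of 6 B cell and 1 of 7 T cell markers lower. In limma 0 of 8 plasmacytoid dendritic cell, 0 of 7 erythroid and 0 of 6 pancreas acinar markers were called. The mean log2 ratio of the plasmacytoid dendritic cell list, cells known for making type I interferon on TLR9 binding, ran from 1.64 to 2.04 over the CpG 3 h arrays and from 1.36 to 2.02 untreated. The neutrophil list, over the 6 markers measured on all arrays, ran from 3.56 to 4.00 against 2.38 to 3.42. After control ODN it ran from 2.89 to 4.60, a range that holds all CpG 3 h arrays. The median difference of the 8 neutrophil markers between CpG 3 h and untreated was 0.05, against -0.02 over all genes. The part of these shifts in the results at 3 h was not tested.

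The control ODN tested whether injected DNA without the CpG design had the same effect at 3 h. Against untreated spleen 0 of the 8 genes were called (3.52% of all genes were). Control ODN and untreated arrays came from different runs, so run and treatment cannot be told apart here. 1 of 8 genes, *Ifih1*, had an unadjusted p below 0.05 in limma. Its control ODN arrays read 2.24, 2.00, 2.32 and 2.10. All 4 lay just above the highest untreated array at 1.93 and far below the CpG arrays. The log2 difference was 0.53 ± 0.18 with an adjusted p of 0.0814 in limma, 1 gene of 8 without overlap where 3.77% of all genes had none. The other 7 genes overlapped, with control ranges of 0.14 to 0.61 for *Rigi*, 0.67 to 1.28 for *Dhx58*, -0.02 to 0.45 for *Zbp1* and 0.47 to 0.84 for *Eif2ak2*.

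Set directly against control ODN at 3 h, CpG ODN gave 7 called genes of 8, 6 higher and 1 lower, where 20.7% of all genes were called (9.23% higher, 11.5% lower). The log2 differences were 2.90 ± 0.20 for *Ifih1*, 2.76 ± 0.18 for *Eif2ak2*, 1.94 ± 0.22 for *Dhx58*, 1.88 ± 0.18 for *Rigi* and 1.81 ± 0.27 for *Zbp1*. All 5 of these genes were higher on every CpG array than on any control array, and with *Mavs* 6 of 8 had no overlap, against 20.1% of all genes. *Mavs* was lower by 0.81 ± 0.21 (adjusted p 0.0055 in limma), and here its control arrays, 0.67, 0.24, 0.72 and 0.58, did not overlap with the CpG arrays. *Cgas* was higher by 0.53 ± 0.18 (adjusted p 0.0291 in limma), with control arrays at -0.18, 0.20, 0.35 and -0.14 that overlapped with the CpG arrays. The *Cgas* call ended without CpG 3 h replicates 1 or 4 or control ODN replicates 1 or 4 (adjusted p 0.068 to 0.121). *Sting1* differed by 0.08 ± 0.22 (interval -0.37 to 0.52, adjusted p 0.846), with a sign that turned without CpG 3 h replicate 4 (-0.05) or control ODN replicate 2 (-0.01). All control ODN arrays came from another run of arrays than the CpG 3 h arrays, so run and treatment cannot be told apart in this comparison. It shares its CpG arrays with the comparison against untreated spleen.

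**Figure D2:**
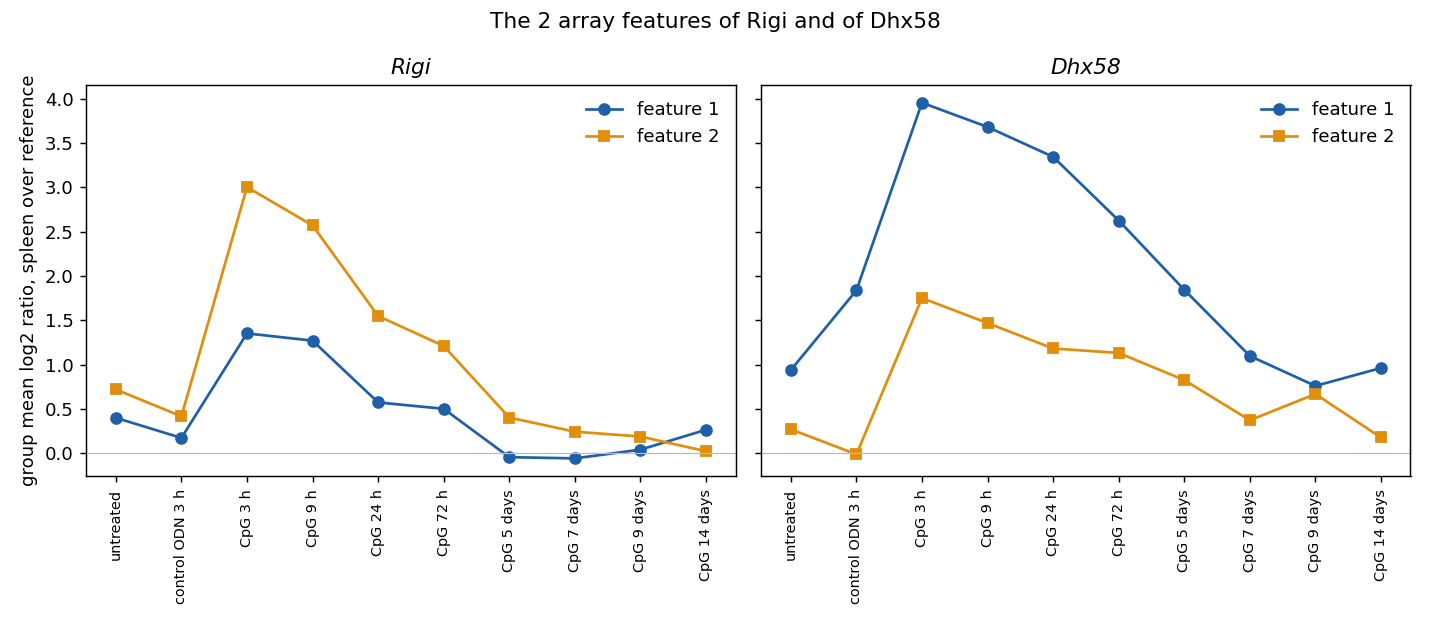
Group mean log2 ratio of spleen over reference for the 2 array features of *Rigi* (left) and of *Dhx58* (right) in the 10 groups. Both features of each gene are highest at CpG 3 h, but for *Dhx58* feature 1 is higher after control ODN (1.84) than untreated (0.94) while feature 2 is lower (-0.01 against 0.27).

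For *Dhx58* the features disagreed on the control ODN: feature 1 was higher than untreated by 0.90 ± 0.22 (adjusted p 0.0237 in limma over features), while feature 2 differed by -0.28 ± 0.31 (adjusted p 0.611). The averaged value of the gene under control ODN therefore hides opposite signs, as the plot of both features shows. At CpG 3 h against control ODN both features of *Dhx58* rose (2.12 and 1.76 on the log2 scale), as did both of *Rigi* (1.18 and 2.58).

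The time course asked how long the differences lasted. Against untreated spleen, the number of genes called higher of 8 was 5 at 3 h, 9 h, 24 h and 72 h, 6 at 5 days, 1 at 7 days, 0 at 9 days and 1 at 14 days. Those called lower numbered 1 at 3 h, 5 days and 7 days and 0 at the other times. Of all genes 8.52% were called at 9 h (5.07% higher, 3.45% lower), 10.9% at 24 h (8.03% and 2.87%) and 15% at 72 h (8.94% and 6.01%). At 5 days it was 30.9% (17.5% higher, 13.4% lower), at 7 days 15.6% (8.68% and 6.89%), at 9 days 13.5% (8.4% and 5.12%) and at 14 days 4.54% (2.77% and 1.77%). At 9 days 3 of the 8 genes had an unadjusted p below 0.05 in limma. The F test over the 8 CpG times called all 8 genes, where 63.5% of all genes were called, with ranks from 28 (*Eif2ak2*) and 29 (*Ifih1*) to 6370 (*Cgas*) by p among 14557 genes. All 8 times use the same 6 untreated arrays, and only CpG 3 h arrays share a run with any of them. With the run as a fixed block, which rests on the CpG 3 h arrays as a link, the calls of *Rigi* (1.19, adjusted p 0.163), *Dhx58* (1.74, 0.0644) and *Eif2ak2* (1.39, 0.0597) ended at 9 h. At 24 h those of *Rigi* (0.17, 0.894), *Dhx58* (1.29, 0.245), *Zbp1* (1.04, 0.335) and *Eif2ak2* (0.93, 0.299) ended. From 72 h on run and time cannot be told apart against untreated spleen.

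**Figure D3:**
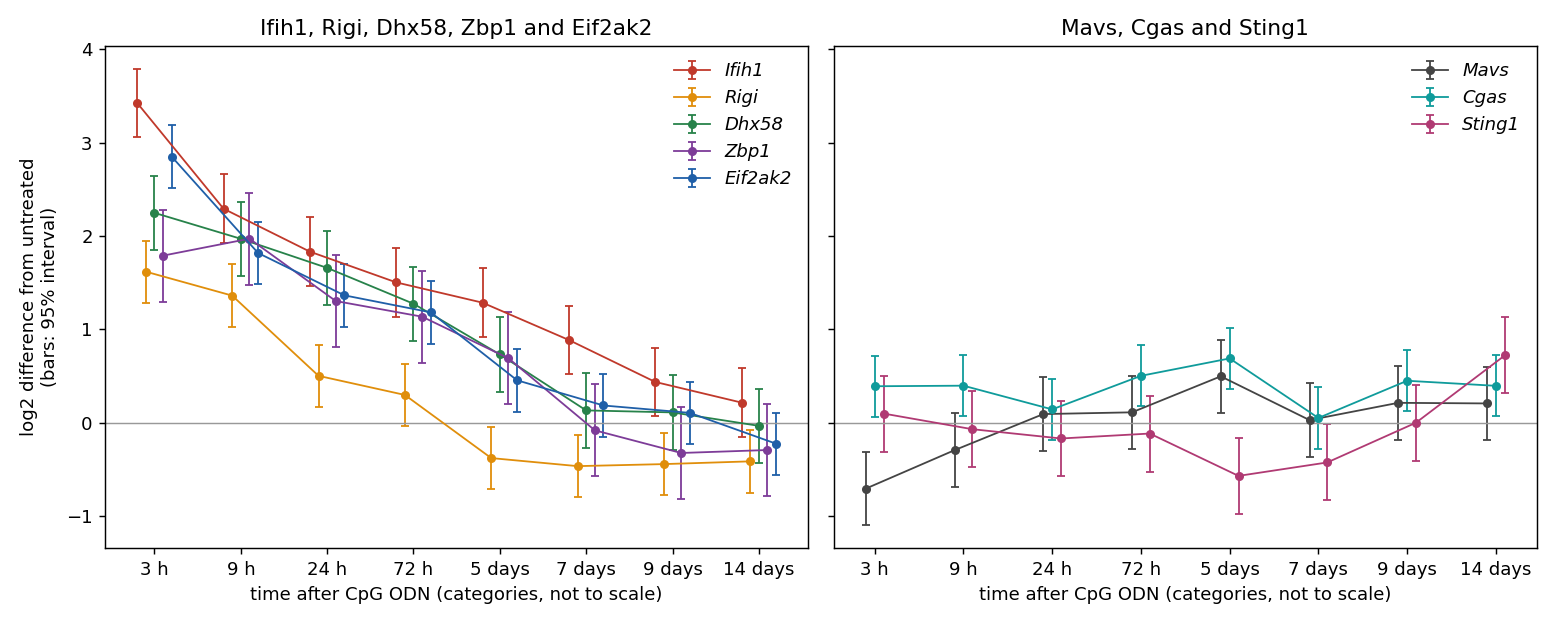
Log2 difference from untreated spleen at the 8 times after CpG ODN, with 95% intervals of the fit, for *Ifih1*, *Rigi*, *Dhx58*, *Zbp1* and *Eif2ak2* (left) and for *Mavs*, *Cgas* and *Sting1* (right); times are evenly spaced categories. *Ifih1* goes from 3.42 at 3 h to 0.21 at 14 days, and *Rigi* lies below 0 from 5 days on, where only 7 days was called.

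*Ifih1* was called at every time up to 7 days. Its log2 difference was 2.29 at 9 h, 1.83 at 24 h, 1.50 at 72 h, 1.28 at 5 days and 0.88 ± 0.18 at 7 days (adjusted p 0.000747 in limma), all called. The 4 arrays at 7 days read 2.29, 2.42, 2.91 and 2.48, still above every untreated array. At 9 days they read 1.92, 1.55, 2.23 and 2.60 and overlapped with untreated arrays, with a difference of 0.44 ± 0.18 (adjusted p 0.108 in limma), called without CpG 9 days replicate 2 (0.61, adjusted p 0.0321). Within the run that held 7 and 14 days together, 7 days was higher than 14 days by 0.67 ± 0.20 (adjusted p 0.0138 in limma; 1 of 8 genes higher and 1 lower, where 21.5% of all genes were called).

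*Dhx58* was called through 5 days, with log2 differences of 1.97 at 9 h, 1.66 at 24 h, 1.27 at 72 h and 0.73 ± 0.20 at 5 days (adjusted p 0.00438 in limma). The 5-day arrays read 1.45, 1.33, 1.16 and 1.40, above the untreated maximum of 0.82, and the 7-day arrays spread from 0.35 to 1.11 across it. When its features were tested alone, only feature 1 passed at 24 h, 72 h and 5 days, and feature 2 had adjusted p of 0.0543, 0.0588 and 0.183. *Eif2ak2* was called over the same times, at 1.82, 1.36, 1.18 and 0.45 ± 0.17 (adjusted p 0.034 in limma at 5 days). Its 5-day arrays, at 0.95, 0.74, 0.98 and 1.09, all lay above the untreated maximum of 0.66, yet the call ended without any one of untreated replicates 1, 2 and 5 or CpG 5 days replicates 1, 3 and 4 (adjusted p 0.0504 to 0.0983).

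*Zbp1* was at a similar level at 9 h and 3 h, with means of 2.17 and 1.99. Its 9 h arrays read 2.90, 2.37, 1.91 and 1.50, a difference of 1.97 ± 0.24 from untreated, and no step between those times was called. It was then called at 1.30 at 24 h and 1.13 at 72 h. The 5-day arrays were scattered, at 1.91, 1.09, 0.74 and -0.20, with the last below every untreated array. The difference of 0.69 ± 0.24 (adjusted p 0.0286 in limma) was not called without CpG 5 days replicate 1 (0.35, adjusted p 0.274), CpG 5 days replicate 2 or untreated replicate 5 (adjusted p from 0.0548). From 7 days on its group means were 0.12, -0.13 and -0.10, near the untreated mean of 0.20.

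*Rigi* was called higher up to 24 h and lower at 7 days. It was called at 9 h (1.36 ± 0.16) on arrays reading 2.02, 1.59, 2.06 and 2.01, and at 24 h by 0.50 ± 0.16 (adjusted p 0.0428 in limma) on arrays reading 1.55, 1.05, 0.97 and 0.68. Tested alone at 24 h, feature 1 differed by 0.17 ± 0.23 (adjusted p 0.699 in limma over features), and only feature 2 passed (0.83 ± 0.19, 0.00325). The 24 h call ended under 8 of the 12 alternatives without a bound on size. It also ended without any one of CpG 24 h replicates 1, 2 and 3 or untreated replicates 1, 2, 3, 4 and 6 (adjusted p 0.057 to 0.223). Its 7-day arrays, at 0.34, 0.18, -0.04 and -0.10, all lay below the lowest untreated array at 0.43. The difference there was -0.47 ± 0.16 (adjusted p 0.0483 in limma), a call that 8 of 10 removals of a single array ended (adjusted p 0.0605 to 0.158): untreated replicates 1 to 5 and CpG 7 days replicates 2, 3 and 4. Differences of similar size at 5 days (-0.38), 9 days (-0.45) and 14 days (-0.42) were not called, with adjusted p of 0.0754, 0.0665 and 0.136, in the fit of all arrays. Other settings called the 5-day value (quantile normalisation 0.0264, scaling 0.0446, without CpG 5 days replicate 1 0.041) and the 9-day value (quantile normalisation 0.0281, scaling 0.0499, array weights 0.035, compared groups only 0.0184), all adjusted p in limma. Without the arrays with over 1000 missing features the 5-day value was -0.08 (adjusted p 0.808). At 14 days the features differed: feature 2 was called lower when tested alone (-0.70 ± 0.19, adjusted p 0.0259 in limma over features). Feature 1 was not (-0.14 ± 0.23, 0.794). The control ODN arrays, at 0.24, 0.18, 0.14 and 0.61, lay mostly below untreated arrays as well. Against them, in the same run, *Rigi* at 7 days differed by -0.20 ± 0.18 (adjusted p 0.437 in limma). In that comparison 0 of the 8 genes were called, 1 with an unadjusted p below 0.05, and 24.8% of all genes.

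Against untreated spleen *Cgas* was called at 72 h and 5 days, beside its call against control ODN at 3 h. It was called at 72 h (0.50 ± 0.16, adjusted p 0.0319 in limma) on arrays reading 0.69, 0.76, 1.02 and 0.32, and at 5 days (0.69 ± 0.16, adjusted p 0.00129) on arrays reading 1.14, 0.87, 1.03 and 0.50. The highest untreated array, at 0.62, overlapped with both groups. The 5-day call held without any single array and under the alternatives that set no bound on the size of the difference. It ended where a log2 difference of at least 1 was also asked for, and the fixed block for run could not be estimated there. The 72 h call ended without untreated replicates 1 or 6 or CpG 72 h replicates 1, 2 or 3 (adjusted p 0.0571 to 0.157). At 7 days the arrays were back at 0.41, 0.43, 0.08 and 0.07, inside the untreated range, and at 9 days they read 0.61, 0.56, 0.77 and 0.64. The 9-day difference of 0.45 ± 0.16 did not pass (adjusted p 0.0589), but did without untreated replicate 5 (0.53, adjusted p 0.0277).

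*Sting1* showed its differences from 5 days on, in both directions. The 5-day arrays read 0.26, 0.16, 0.30 and 0.47, the lowest group mean of the series at 0.29, and the difference was -0.57 ± 0.20 (adjusted p 0.0281 in limma). Most of these arrays lay below every untreated array and the highest of them just above the lowest untreated array. The 5-day call ended without untreated replicates 5 or 6 or CpG 5 days replicates 1, 2 or 3 (adjusted p 0.0526 to 0.0774). The 9-day arrays were scattered, at 1.52, 1.16, 0.12 and 0.66. At 14 days the arrays read 1.33, 1.58, 1.85 and 1.57, all above the untreated maximum of 1.20, with a difference of 0.72 ± 0.20 (adjusted p 0.032 in limma). *Sting1* was the 1 gene of 8 called at 14 days. The 14-day call ended with quantile normalisation (0.58, adjusted p 0.0988), with scaling of the arrays (0.49, 0.162) and without untreated replicates 1, 2 or 3 or CpG 14 days replicates 2, 3 or 4 (adjusted p 0.0511 to 0.121).

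The 14-day arrays shared a run with the CpG 72 h, CpG 7 days and control ODN arrays, which allowed comparisons within it, added after seeing the data. *Sting1* was lower at 72 h than at 14 days by 0.84 ± 0.22 (adjusted p 0.00428 in limma) and lower at 7 days than at 14 days by 1.15 ± 0.22 (adjusted p 0.000355), without overlap of the arrays in either case. Against control ODN it was higher at 14 days by 0.70 ± 0.22 (adjusted p 0.051), which did not pass: there 0 of the 8 genes were called, 2 with an unadjusted p below 0.05 in limma, and 5.74% of all genes. In the 72 h against 14 days comparison 6 of the 8 genes were called, 5 higher and 1 lower, where 29.1% of all genes were. In the same run CpG 72 h exceeded control ODN in 6 of 8 genes, where 16.9% of all genes were called: by 1.15 for *Zbp1*, 1.09 for *Eif2ak2*, 0.98 for *Ifih1*, 0.97 for *Dhx58*, 0.64 for *Cgas* and 0.56 for *Rigi*.

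*Mavs* had its other called difference at 5 days. Its arrays read 0.01, 0.09, 0.21 and 0.29 at 9 h, all above those at 3 h, although this step was not called (adjusted p 0.514 in limma), and read 0.80, 1.00, 0.72 and 1.25 at 5 days. The 5-day group was the highest of the series and overlapped with untreated arrays, the highest of which read 0.87. Its difference of 0.50 ± 0.19 had an adjusted p of 0.0493 in limma, and 9 of the 11 alternatives without a bound on size ended the call. So did leaving out any one of untreated replicates 1, 2, 5 and 6 or CpG 5 days replicates 1, 2 and 4 (adjusted p 0.0547 to 0.171).

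Cell type markers also differed from untreated spleen at the later times. At 5 days, where 30.9% of all genes were called, 5 of 8 plasmacytoid dendritic cell markers and 2 of 6 B cell markers were called lower, 5 of 7 T cell markers lower and 1 higher, and 5 of 8 neutrophil and 2 of 9 monocyte and macrophage markers higher. NK cell markers gave 1 higher and 1 lower of 7, and erythroid markers 2 higher and 1 lower of 7. The plasmacytoid dendritic cell list had a mean log2 ratio of 0.02 to 0.98 over the 5-day arrays against 1.36 to 2.02 untreated, and the T cell list 1.15 to 1.42 against 1.77 to 2.38. At 9 and at 14 days, where 13.5% and 4.54% of all genes were called, all 8 neutrophil markers were called higher. The list mean ran from 5.68 to 6.01 at 9 days and from 5.05 to 5.59 at 14 days, against 2.38 to 3.42 untreated. At 72 h, where 15% of all genes were called, 4 of 7 T cell, 2 of 6 B cell and 1 of 8 plasmacytoid dendritic cell markers were lower. Higher at 72 h were 4 of 8 neutrophil, 2 of 7 NK cell, 2 of 7 erythroid and 2 of 9 monocyte and macrophage markers. Pancreas acinar markers, from tissue beside the spleen, varied widely between arrays (list mean 0.29 to 4.98 in untreated spleen, 0.06 to 1.12 at 14 days). The part of these shifts in the late values of *Sting1*, *Cgas*, *Mavs* and *Rigi* was not tested.

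Steps between one CpG time and the next were tested for each gene, 56 steps in all. Of these 7 were called, 1 higher and 6 lower, where 5.41% of all gene steps were called. Over all genes 1.44% were called between 3 h and 9 h, 9.7% between 9 h and 24 h, 5.5% between 24 h and 72 h and 3.42% between 72 h and 5 days. The later steps gave 3.22% between 5 and 7 days, 4.93% between 7 and 9 days and 9.68% between 9 and 14 days. *Ifih1* and *Eif2ak2* fell between 3 h and 9 h, by 1.13 ± 0.20 and 1.03 ± 0.18 on the log2 scale, both with an adjusted p of 0.000585 in limma. No array of either gene at 9 h reached the lowest at 3 h. *Rigi* fell later, between 9 h and 24 h, by 0.86 ± 0.18 (adjusted p 0.00217), a step not called with features tested alone (adjusted p 0.0801 in limma). *Rigi* and *Eif2ak2* fell between 72 h and 5 days, by 0.68 and 0.73 (adjusted p 0.0303 and 0.0202), calls that ended without CpG 72 h replicate 3 (0.126 and 0.114) and without the arrays with over 1000 missing features (-0.27, adjusted p 0.624, and -0.60, 0.169). With features tested alone the *Rigi* step from 72 h to 5 days was not called (adjusted p 0.27). *Rigi* also lost that step without CpG 5 days replicates 3 or 4 (adjusted p from 0.0913), and *Eif2ak2* without CpG 5 days replicate 2 (0.069). *Cgas* fell between 5 and 7 days by 0.64 ± 0.18 (adjusted p 0.0393), and *Sting1* rose between 9 and 14 days by 0.72 ± 0.22 (adjusted p 0.0325); 6 and 5 of the 8 arrays concerned ended those calls when left out (adjusted p to 0.142 and 0.19).

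The order of the group means places CpG 3 h highest for *Ifih1*, *Eif2ak2*, *Dhx58* and *Rigi*, and for *Dhx58* and *Rigi* the next time, 9 h, was not called against it (adjusted p 0.762 and 0.715 in limma). For *Zbp1* 9 h came first, with 3 h not called against it (adjusted p 0.914). For *Ifih1* no neighbouring pair of CpG times after 9 h was called, so the decline from 3.93 at 9 h to 1.85 at 14 days was made of steps none of which was called. For *Mavs* the order ran from 3 h as the lowest to 5 days as the highest, for *Cgas* from control ODN to 5 days, and for *Sting1* from 5 days to 14 days.

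Over the 10 group means, *Ifih1*, *Eif2ak2*, *Dhx58*, *Zbp1* and *Rigi* had Pearson correlations with each other from 0.881 (*Rigi* and *Ifih1*) to 0.981 (*Dhx58* and *Zbp1*). *Mavs* correlated negatively with each of them (-0.603 to -0.859), and *Sting1* between -0.21 and 0.062. These are descriptions over 10 groups measured on shared arrays. Over the 42 single arrays the correlations ran from 0.787 to 0.938 among *Ifih1*, *Eif2ak2*, *Dhx58*, *Zbp1* and *Rigi*. Those of *Mavs* with them ran from -0.43 to -0.63. For each gene, 12319 other genes measured on every array were compared over the 10 group means. The highest of so many correlations over 10 points can be large without any link. Those most like *Dhx58* were *Ifi204* (0.995), *Stat2* (0.995) and *Impg2* (0.992). The nearest to *Zbp1* were *Sp110* (0.987), *Stat2* (0.986) and *Il10* (0.982), to *Ifih1* *Car13* (0.983), *Usp18* (0.98) and *Poteg* (0.977), and to *Eif2ak2* *Hils1* (0.991), *Gucy1b2* (0.99) and *Car13* (0.988). *Rigi* was nearest to *Tor3a* (0.982), *Ctsl* (0.981) and *Trim30d* (0.979). The nearest genes to *Mavs* were *Klc4* (0.956), *D2hgdh* (0.952) and *Cnst* (0.939). Those of *Sting1*, *Elf4* (0.945), *Cutal* (0.923) and *Ptprd* (0.916), and of *Cgas*, *Hes2* (0.908), *Fhl5* (0.862) and *Irgm2* (0.829), were less alike over the 42 single arrays, at 0.475 and 0.325 for the first of each. The first for *Mavs*, *Klc4*, stood at 0.717 there, and the first for each remaining gene at 0.807 to 0.96.

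The genes around the sensors were taken from lists of their pathways. Of 24 measured genes of RIG-I-like receptor signalling, 9 were higher and 0 lower at CpG 3 h, where 7.7% of all genes were called higher and 3.93% lower; the same shares apply to the other lists at 3 h. *Ddx60*, a helicase linked to RIG-I, rose by 3.28 ± 0.26 on the log2 scale, the ubiquitin-like modifier *Isg15* by 2.30 ± 0.24, the kinase *Ikbke* by 1.00 ± 0.18 and the kinase *Tbk1* by 0.70 ± 0.15. *Irf7*, the interferon-inducible transcription factor of the pathway, rose by 0.79 ± 0.23, a call that ended without untreated replicate 6 or CpG 3 h replicate 1 (adjusted p 0.0533 and 0.133 in limma). *Irf3*, its constitutive relative, differed by -0.13 ± 0.12 (adjusted p 0.608), and with the run as a fixed block by 0.18. The list's median difference was 0.24, against -0.02 over all genes.

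**Figure D4:**
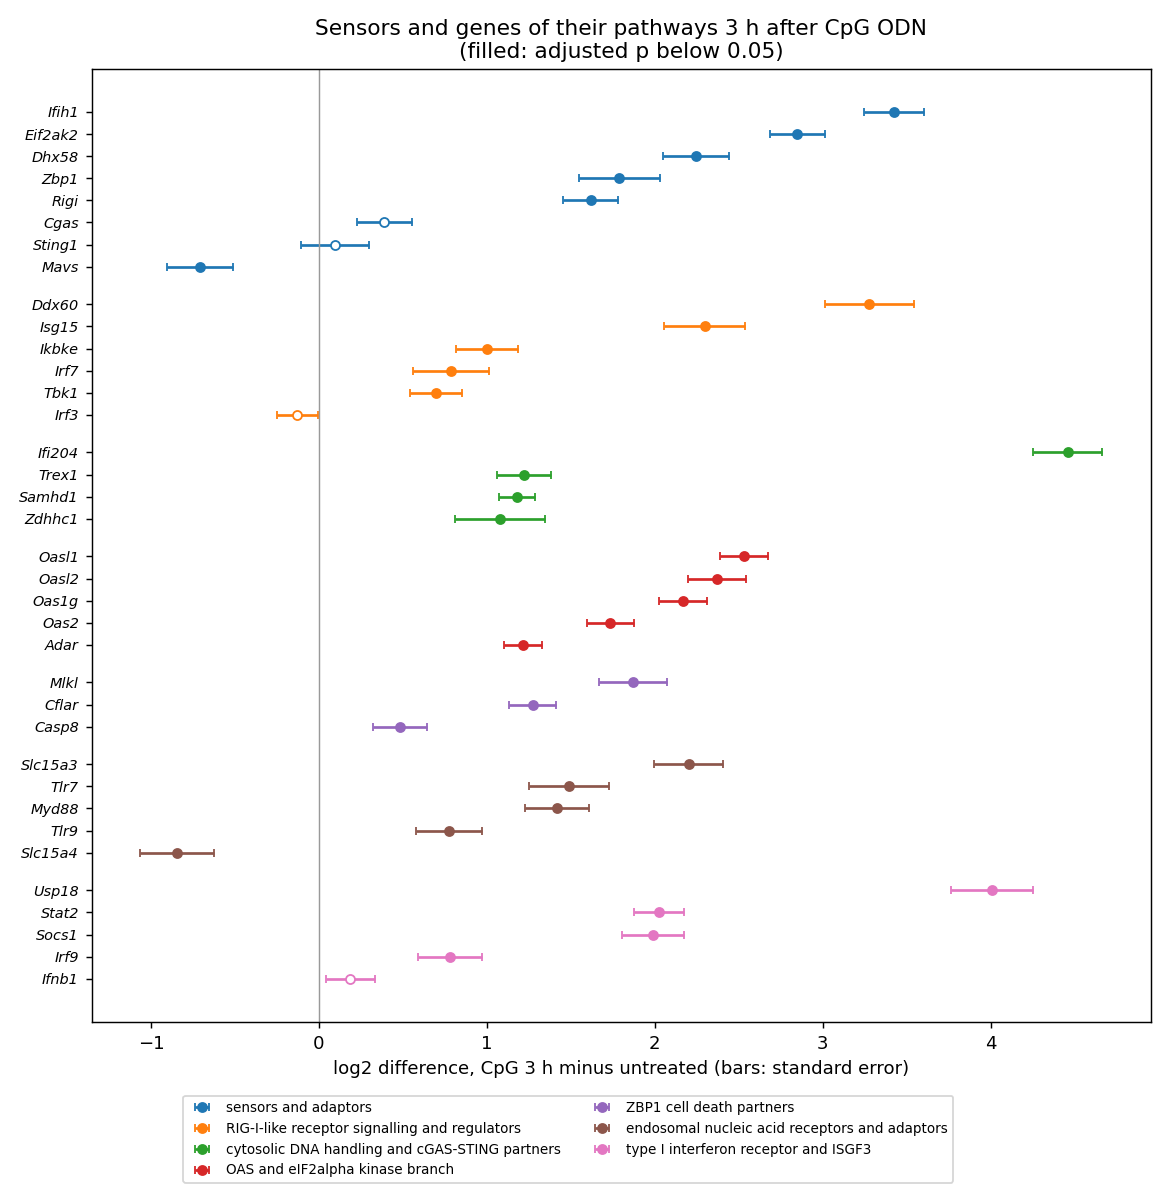
Log2 difference between CpG 3 h and untreated spleen, with standard errors, for the 8 sensor and adaptor genes and for the named genes of 6 pathway lists; filled points have an adjusted p below 0.05 in limma. *Ifi204* (4.46) and *Usp18* (4.01) exceed every sensor, and *Mavs* (-0.71) and *Slc15a4* (-0.84) are the called genes below 0 among those plotted.

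Of 17 genes that handle cytosolic DNA or work with cGAS and STING, 5 were higher and 1 lower at 3 h. *Ifi204*, a DNA-binding protein of the interferon-inducible p200 family, rose by 4.46 ± 0.21, the exonuclease *Trex1* by 1.22 ± 0.16, the nucleotide hydrolase *Samhd1* by 1.18 ± 0.11 and *Zdhhc1* by 1.08 ± 0.27, while the median of the list was 0.01. The gene called lower was *Dnase2a*, a lysosomal nuclease (-0.40 ± 0.13), named after its value was seen. The count of 6 called genes fell to 3 without CpG 3 h replicate 1 or replicate 3. *Zdhhc1* lacked values on some arrays and could be tested in 7 of 10 removals of a single array. Where it could not be tested, it counted as not called. Of 16 genes of the OAS and eIF2alpha kinase branch, 8 were higher and 1 lower. The synthetases and their relatives *Oasl1* (2.53 ± 0.14), *Oasl2* (2.37 ± 0.17), *Oas1g* (2.17 ± 0.14) and *Oas2* (1.74 ± 0.14) and the RNA-editing enzyme *Adar* (1.21 ± 0.11) rose, and the eIF2alpha kinase *Eif2ak3*, likewise named after its value was seen, was lower (-0.70 ± 0.18). Members of the Oas family are alike in sequence, and whether their features tell them apart was not tested.

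Of 6 measured partners of ZBP1 in cell death, 4 were higher and 0 lower at 3 h: *Mlkl*, the executioner of necroptosis (1.87 ± 0.20), the caspase-8 regulator *Cflar* (1.27 ± 0.14), *Adar* (above) and *Casp8* (0.48 ± 0.16, adjusted p 0.0448 in limma). *Casp8* lost its call in 7 of 10 removals of a single array (adjusted p 0.056 to 0.315), those of untreated replicates 1, 3, 5 and 6 and CpG 3 h replicates 1, 3 and 4. Of 13 endosomal receptors and adaptors 6 were higher and 1 lower. *Tlr9*, the receptor of CpG DNA, rose by 0.77 ± 0.20, *Tlr7* by 1.49 ± 0.24, the adaptor *Myd88* by 1.42 ± 0.19 and the transporter *Slc15a3* by 2.20 ± 0.21, and *Slc15a4* fell by 0.84 on the log2 scale. Of 9 genes of the type I interferon receptor and its transcription factor ISGF3, 6 were higher: among them *Usp18* (4.01 ± 0.24), *Stat2* (2.03 ± 0.15), *Socs1* (1.99 ± 0.18) and *Irf9* (0.78 ± 0.19). *Ifnb1*, which encodes interferon beta, differed by 0.19 ± 0.14 (adjusted p 0.511). With the run as a fixed block the calls of *Tbk1*, *Irf7*, *Casp8*, *Tlr9*, *Slc15a4* and *Irf9* ended.

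Of all genes 17.5% were called higher and 13.4% lower at 5 days. The counts called higher and lower then were 5 and 3 of 24 for the RIG-I-like receptor list, 5 and 0 of 17 for the DNA list, 9 and 1 of 16 for the OAS and kinase list and 4 and 1 of 6 for the ZBP1 partners, with 2 and 1 of 13 for the endosomal list and 3 and 1 of 8 for the interferon receptor list. Called in either direction, the RIG-I-like receptor and DNA lists lay near the 30.9% of all genes. At 14 days 0 and 1 of the RIG-I-like receptor list, 0 and 1 of the ZBP1 partners and 0 of the other 4 lists were called, where 4.54% of all genes were. *Mlkl* was called higher at 5 days (1.19) and lower at 14 days (-0.67).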

How the data were processed

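The deposited values are log2 ratios from 2-colour arrays of the authors, with spleen cDNA in Cy5 and universal mouse reference cDNA in Cy3 per the labels. The log base was inferred from the values, which ran from -6.859 to 9.784, and so were the direction (spleen over reference, from spleen markers above 0) and the centring (array medians -0.014 to 0.019). No source used here states the image analysis, spot filter or normalisation. Symbols came from the platform's annotation, and features with 1 symbol were averaged per gene. All 42 arrays entered 1 limma 3.58.1 fit in R 4.3.3, with 1 coefficient per group, on genes with at least 3 arrays in each group compared. Tests were 2-sided, Benjamini-Hochberg adjusted over all genes tested, and called below 0.05. On data simulated for CpG 3 h against untreated over 12588 genes, 65 genes were changed by 0.5, 68 by 1 and 67 by 2 on the log2 scale. Of these 30.8%, 94.1% and 98.5% were recovered, with 8 false of 158 calls. The simulated noise was normal and independent, without effects of run, and few genes were changed, so these shares need not hold for the real arrays. Figures were drawn with matplotlib 3.10.9.

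The 8 genes and all lists were chosen with earlier results of these data known. Named besides them were, for each, the 3 genes most like it over group means, passing over clone, predicted and numbered symbols, up to 4 called genes of each pathway list with the largest difference at 3 h, and a set of pathway genes whatever their result, of which *Ripk3* had no feature with 1 symbol and some are not reported here. Alternatives were quantile normalisation, scaling of arrays, a median over features, each feature alone, genes on all arrays, array weights, the compared groups only, blocks for replicate number and run, stricter thresholds and leaving out each array. Runs are arrays whose database numbers lie within 12 of the next, 10 runs of which 4 held 1 array. Whether these numbers follow hybridisation, scanning or another step is not stated in the labels. Comparisons within a run, and leaving out the 8 arrays with over 1000 missing features, were chosen after seeing the data. Replicate numbers were not taken to pair the arrays in the main fit. For 36 combinations of treated group and replicate number, deviations from the group means were correlated with those of the same-numbered untreated array. The correlations ran from -0.218 to 0.456, with a median of 0.037 and 15 of them over 0.1. With values of both signs, they cannot decide whether the numbers pair any arrays.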

Additional observations from a re-analysis of the deposited data

Results flagged for a closer look

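In 4 of the 80 combinations of gene and group, 1 array lay far from the others by Dixon's criterion (gap over range above 0.829 for 4 arrays), where chance gives about 1 in 20. *Rigi* at CpG 9 h read 1.59 in replicate 2 and 2.01 to 2.06 in the others. *Rigi* at CpG 72 h read 1.28 in replicate 3 and 0.66 to 0.76 in the others, and the *Rigi* step from 72 h to 5 days was not called without that array. *Dhx58* at CpG 9 days read 0.371 in replicate 3 and 0.80 to 0.84 in the others. *Eif2ak2* after control ODN read 0.842 in replicate 2 and 0.47 to 0.51 in the others.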

How the results depend on the processing

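Of 45 called differences of the 8 genes, 22 kept their call without any single array and under every alternative without a bound on size, and 0 changed sign. The median over features and the limit to genes on all arrays left the values of the 8 genes as they were. These 2 alternatives could change a call only through the other genes and could not turn a sign. The 45 leave out the comparisons within a run, which were not put through the alternatives. With the run as a fixed block 2 genes were called at 9 h and 1 at 24 h, *Mavs* at 3 h was -0.66 (not called), and the lists of RIG-I-like receptor, DNA, endosomal and interferon receptor genes had 3 called genes each; *Irf3* turned to 0.18. From 72 h on that block could not be estimated. Testing features alone left 3 genes at 24 h and 1 at 7 days. With the replicate block 3 genes were called at 5 days and 1 at 7 days. At 5 days it ended the calls of *Mavs*, *Sting1*, *Zbp1* and *Eif2ak2* (adjusted p 0.0553 to 0.172 in limma), and whether the numbers pair the arrays is not known. The random run block and the median over features each gave 1 gene at 7 days. At 9 days quantile normalisation and scaling gave 1 each, array weights and the compared groups only 2 each; at 14 days quantile normalisation and scaling gave 0. Without the arrays with over 1000 missing features the counts were 4 at 5 days, 1 at 9 days and 0 at 14 days. Array weights gave 11 called steps. At an adjusted p below 0.01 there were 3 genes at 5 days, 1 at 7 days, 0 at 14 days and 3 steps. An adjusted p below 0.05 together with an absolute log2 difference of at least 1 gave 1, 0, 0 and 2. The lists then had 2 RIG-I-like receptor, 3 endosomal and 3 interferon receptor genes. Without single arrays the counts ran from 3 to 7 at 5 days, 1 to 2 at 7 days, 0 to 1 at 9 and at 14 days. *Sting1* at 3 h turned to -0.0352 against untreated without CpG 3 h replicate 4, and against control ODN to -0.0549 without that array, -0.0061 without control ODN replicate 2 and -0.0061 without the arrays with many missing features. Over single arrays left out those 2 *Sting1* differences reached at most 0.2338 and 0.2141. The cause of these changes was not tested. Quantile normalisation and scaling moved the median of all genes by at most 0.0503.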
